A study of Mus musculus with 6 samples.

Results

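*Ttr* and 8 other genes of the choroid plexus, namely *Kl*, *Prlr*, *F5*, *Folr1*, *Clic6*, *Aqp1*, *Otx2* and *Sostdc1*, were followed through the 6 RNA-seq libraries of the *Shank3* TG mPFC study. They were matched by Ensembl identifier to their symbols in GENCODE release M21, and all 9 were among the 18254 genes of the deposited table. The group was selected on the normalized counts of *Ttr* in these same 6 libraries, and the other 8 are genes known from the same epithelium, so the differences between genotypes given for the 9 genes are descriptions without a test. The question was whether *Ttr* moved together with the other genes or alone.

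The libraries came from the medial prefrontal cortex (mPFC) of male mice in the C57BL/6J background, aged 10 to 12 weeks. There were 3 libraries from *Shank3* transgenic (TG) mice, which carry an EGFP-*Shank3* transgene and overexpress the postsynaptic scaffold protein Shank3, and 3 from their wild-type (WT) littermates. Each library held the mPFC of a pair of mice of one genotype, so a replicate is a pool. The values are normalized read counts, which are gene-level estimates divided by the size factor of the library, and the sum over all genes lay between 28364000 and 29448000 in each library. The altered gene itself, *Shank3*, had a *Shank3* TG mean of 17595 ± 1351 normalized counts (SD, n = 3) and a WT mean of 7779 ± 862, and the genes of cortical excitatory neurons were abundant in all 6 libraries, with 39671 ± 406 normalized counts of *Slc17a7*, the vesicular glutamate transporter, in WT and 43582 ± 1823 in *Shank3* TG. The libraries of both genotypes are numbered 1 to 3, and the deviations of TG-3 and WT-3 from their genotype means were correlated over the genes (r = 0.62).

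The choroid plexus is a sheet of secretory epithelium in the brain ventricles that produces cerebrospinal fluid and forms a barrier between blood and that fluid. Its cells are known for very strong expression of *Ttr*, which encodes transthyretin, a carrier of thyroxine and, bound to retinol-binding protein, of retinol. The mPFC itself is cortical tissue and holds no choroid plexus. In bulk tissue, fewer cells of a type and less RNA per cell cannot be told apart.

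*Ttr* (ENSMUSG00000061808, chromosome 18 from 20665280 to 20674321 of GRCm38) had 127, 22.9 and 445 normalized counts in TG-1, TG-2 and TG-3, and 14.3, 12.6 and 41.7 in WT-1, WT-2 and WT-3. TG-3 and TG-1 stood above all WT libraries, whereas TG-2 lay below WT-3, so the genotypes overlapped. The *Shank3* TG mean was 198 ± 220 normalized counts (SD, n = 3) and the WT mean 22.8 ± 16.3, and the difference of the means was smaller than the SD of the *Shank3* TG libraries. On the scale log2(normalized count + 1), on which all log2 values are given, *Ttr* was 2.42 higher in *Shank3* TG (standard error 0.97), 1.42 without TG-3 and 3.53 without TG-2. Between libraries of the same number, the log2 difference was 3.06 for number 1, 0.82 for number 2 and 3.39 for number 3. Over all 6 libraries, the highest value was 35.4 times the lowest, a log2 range of 5.04. A mean of 5 normalized counts or more was required of a tested gene, and of the 16714 tested genes 0.616% had a log2 range as wide as that of *Ttr*. Nothing is read from this share, because *Ttr* was selected on these same counts.

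The other secreted or shed products of the group did not share this spread. *F5*, coagulation factor V (ENSMUSG00000026579, chromosome 1 from 164151838 to 164220277), gave 21.7, 29.3 and 37.5 normalized counts across TG-1, TG-2 and TG-3, against 28.8, 26.1 and 31.5 across WT-1, WT-2 and WT-3. The WT values of *F5* lay inside the *Shank3* TG range, and its log2 difference was 0.0052 (standard error 0.27), 0.20 without TG-1 and -0.18 without TG-3. *Sostdc1*, a secreted antagonist of bone morphogenetic proteins (ENSMUSG00000036169, chromosome 12 from 36314139 to 36318452), gave 9.58, 12.6 and 20.5 normalized counts across TG-1, TG-2 and TG-3, against 4.83, 12.7 and 22.8 across WT-1, WT-2 and WT-3. Its lowest library was number 1 in both genotypes, whereas *Ttr* was lowest at number 2, and its log2 difference between the genotypes was 0.23 (standard error 0.56), -0.31 without WT-1, -0.05 without TG-3 and 0.70 without WT-3. *Kl*, which encodes klotho, a membrane co-receptor for FGF23 that is also shed into the fluid (ENSMUSG00000058488, chromosome 5 from 150952607 to 150993817), gave 58.3, 61.2 and 64.4 normalized counts across TG-1, TG-2 and TG-3, against 45.7, 69.1 and 84.2 across WT-1, WT-2 and WT-3. *Kl* thus varied within WT and hardly within *Shank3* TG, where *Ttr* varied most, and its log2 difference was -0.07 (standard error 0.24), -0.31 without WT-1 and 0.12 without WT-3.

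The receptors differed from *Ttr* as well. *Prlr*, the prolactin receptor (ENSMUSG00000005268, chromosome 15 from 10177238 to 10349180), gave 21.4, 20.5 and 28.9 normalized counts across TG-1, TG-2 and TG-3, against 45.1, 19.9 and 124 across WT-1, WT-2 and WT-3. Its highest value was in WT-3 and not in TG-3, and its log2 difference between the genotypes was -1.02 (standard error 0.58), opposite in sign to that of *Ttr*. The value was -0.35 without WT-3 and -1.64 without WT-2. *Folr1*, the receptor that carries folate across this epithelium (ENSMUSG00000001827, chromosome 7 from 101858331 to 101870788), gave 6.89, 3.70 and 13.0 normalized counts across TG-1, TG-2 and TG-3, against 7.15, 8.23 and 7.94 across WT-1, WT-2 and WT-3. Within *Shank3* TG, *Folr1* had the same order as *Ttr*, with TG-3 highest and TG-2 lowest, while the WT libraries were nearly level. Its log2 difference was -0.12 (standard error 0.49), 0.26 without TG-2 and -0.53 without TG-3.

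Of the channel genes, *Clic6*, a member of the chloride intracellular channel family (ENSMUSG00000022949, chromosome 16 from 92485736 to 92541243), gave 10.5, 7.22 and 14.8 normalized counts across TG-1, TG-2 and TG-3, against 7.54, 3.00 and 13.9 across WT-1, WT-2 and WT-3. This is the order of *Ttr* in both genotypes, from number 3 through number 1 to number 2, although TG-3 and WT-3 were nearly equal for *Clic6* and differed more than 10-fold for *Ttr*. The log2 difference of *Clic6* was 0.52 (standard error 0.56), 0.02 without WT-2, 0.29 without TG-3 and 0.97 without WT-3. *Aqp1*, the water channel of the fluid-facing membrane (ENSMUSG00000004655, chromosome 6 from 55336432 to 55348555), gave 20.5, 47.0 and 6.65 normalized counts across TG-1, TG-2 and TG-3, against 9.26, 6.85 and 13.5 across WT-1, WT-2 and WT-3. Its highest library was TG-2, in which *Ttr* was lowest among the *Shank3* TG libraries, and its lowest was TG-3, in which *Ttr* was highest. The log2 difference of *Aqp1* was 0.92 (standard error 0.65) and 0.28 without TG-2 and 1.61 without TG-3. *Otx2*, a homeobox transcription factor that specifies and maintains the choroid plexus (ENSMUSG00000021848, chromosome 14 from 48657677 to 48673819), gave 0.633, 0 and 7.49 normalized counts across TG-1, TG-2 and TG-3, against 6.12, 0 and 3.14 across WT-1, WT-2 and WT-3. Its mean of 2.90 over the 6 libraries was under the filter, so it was the one gene of the 9 that was not in the fit, and 3 of its values were under the floor of 3 normalized counts that was used here as the lowest readable level.

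**Figure D1:**
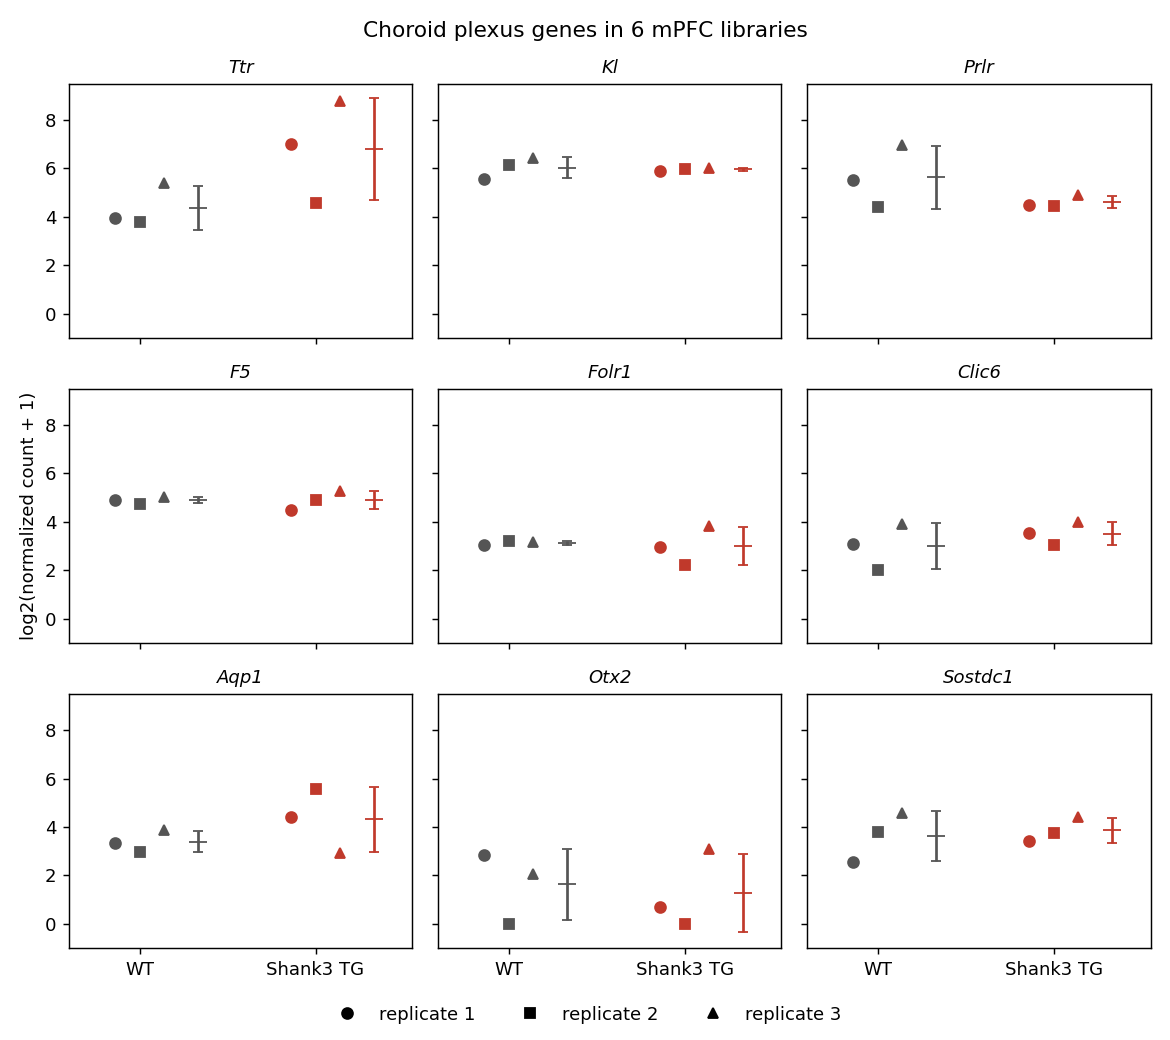
Each panel plots one gene as log2(normalized count + 1) in the 3 WT libraries (grey) and the 3 *Shank3* TG libraries (red), with the replicate number as the symbol and the mean ± SD beside the points. *Ttr* spans a log2 range of 5.04, and the other 7 genes that passed the filter span between 0.76 and 2.65.

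The genotypes did not overlap for 0 of the 9 genes. Among the tested genes they did not overlap for 6.02%, and nothing is read from this because the group was chosen with this contrast known. Of the 8 genes that passed the filter, the log2 difference was above 0 for 5 and below 0 for 3, beside 48.6% above 0 among all tested genes. Without *Ttr*, the median of the remaining 7 was 0.0052, beside a median of -0.0037 over all tested genes. That median lay between -0.18 and 0.26 when each library was left out in turn, lowest without WT-1 and highest without TG-2.

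Levels were compared between genes per kilobase of exon. On that scale the mean of *Ttr* over the 6 libraries was 93.2 normalized counts per kilobase, and the means of the other 8 genes were between 0.687 for *Otx2* and 7.77 for *Sostdc1*. The distance depended on the library. In TG-3 *Ttr* had 375 normalized counts per kilobase and ranked 3485 of the 18231 genes with an exon length. In WT-2 it had 10.6 and ranked 14202, close to *Kl* with 7.41 and *Sostdc1* with 7.14 normalized counts per kilobase.

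The sum of the other 8 genes was 149.5, 182 and 193 normalized counts in TG-1, TG-2 and TG-3, and 154, 146 and 301 in WT-1, WT-2 and WT-3. The highest sum was 2.06 times the lowest, and 1.62 times the lowest when *Prlr* was left out, whereas *Ttr* changed 35.4-fold. *Ttr* divided by this sum was 0.0924, 0.0862 and 0.139 in WT, 0.848 in TG-1, 0.126 in TG-2 and 2.30 in TG-3. The ratio in TG-2 was inside the WT range, and those in TG-1 and TG-3 were above it, so that the highest ratio was 26.7 times the lowest. Taken gene by gene, the ratio of *Ttr* to one other gene changed between 15.8-fold, for *Clic6*, and 137-fold, for *Aqp1*, over the 6 libraries. *Otx2*, with 0 normalized counts in TG-2 and WT-2, gave no ratio there.

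**Figure D2:**
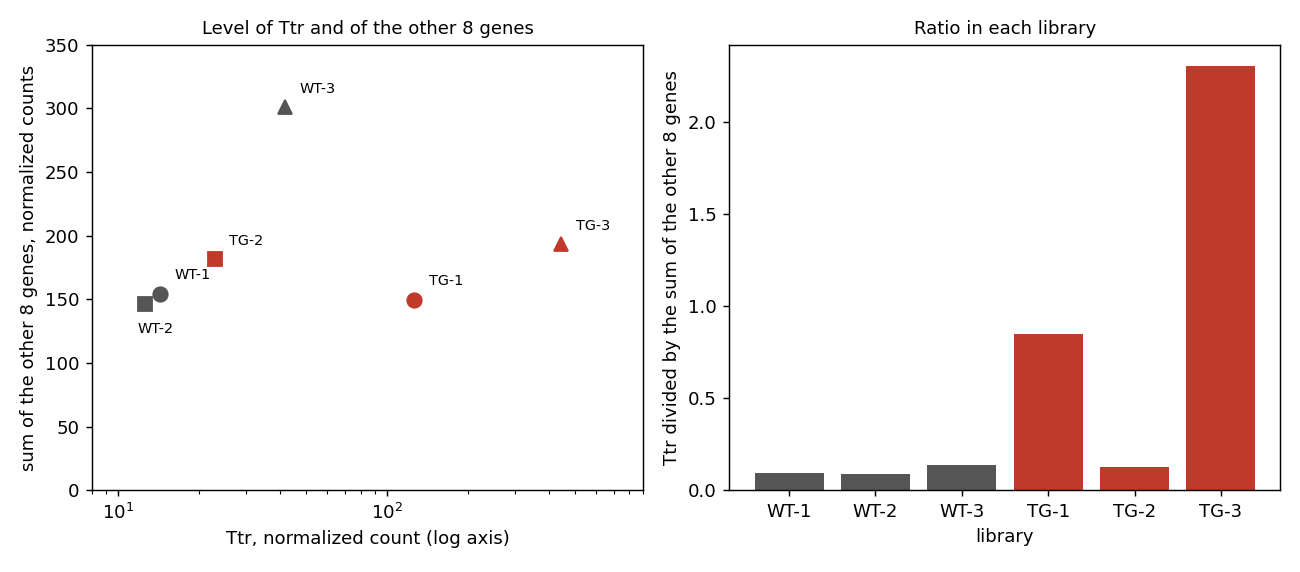
The left panel plots the sum of the other 8 genes (normalized counts) against *Ttr* (normalized count, log axis) in each library, and the right panel the ratio of *Ttr* to that sum. *Ttr* was high in TG-1 and TG-3 with sums of 149.5 and 193 normalized counts, and the largest sum, 301 in WT-3, came with 41.7 normalized counts of *Ttr*.

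Over the 6 libraries, the log2 value of *Ttr* and that of the summed other 8 genes had a Pearson r of 0.19 and a Spearman rho of 0.54. These are descriptions over 6 points without a p-value. With TG-3 and TG-1 left out, the libraries farthest from the median of *Ttr*, r was 0.98 over the remaining 4 libraries, in which WT-3 was highest in both measures. The r was 0.42 for the deviations from the genotype means. The single genes ranged from -0.15 for *Aqp1* and -0.06 for *Prlr* through 0.15 for *Kl*, 0.34 for *F5*, 0.43 for *Otx2*, 0.48 for *Sostdc1* and 0.58 for *Folr1* to 0.75 for *Clic6*. These values depended on the libraries and on the genotype means. For the deviations from the genotype means, r was -0.74 for *Aqp1* and above 0 for the other 7, from 0.33 for *Kl* through 0.52 for *Prlr* and 0.71 for *Clic6* to 0.92 for *Folr1*. Without TG-3 and TG-1, r was -0.11 for *Folr1* and again above 0 for the other 7, with 0.74 for *Prlr*, 0.86 for *Clic6* and 0.90 for *F5*. The median r of the 7 genes that passed the filter was 0.34 and that of all tested genes -0.01. Over the 6 libraries, none of the 7 genes had an r with *Ttr* over 0.9, which 0.820% of the tested genes had. At so low a share, none among 7 genes is the usual outcome for any tested genes, so nothing is read from it.

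**Figure D3:**
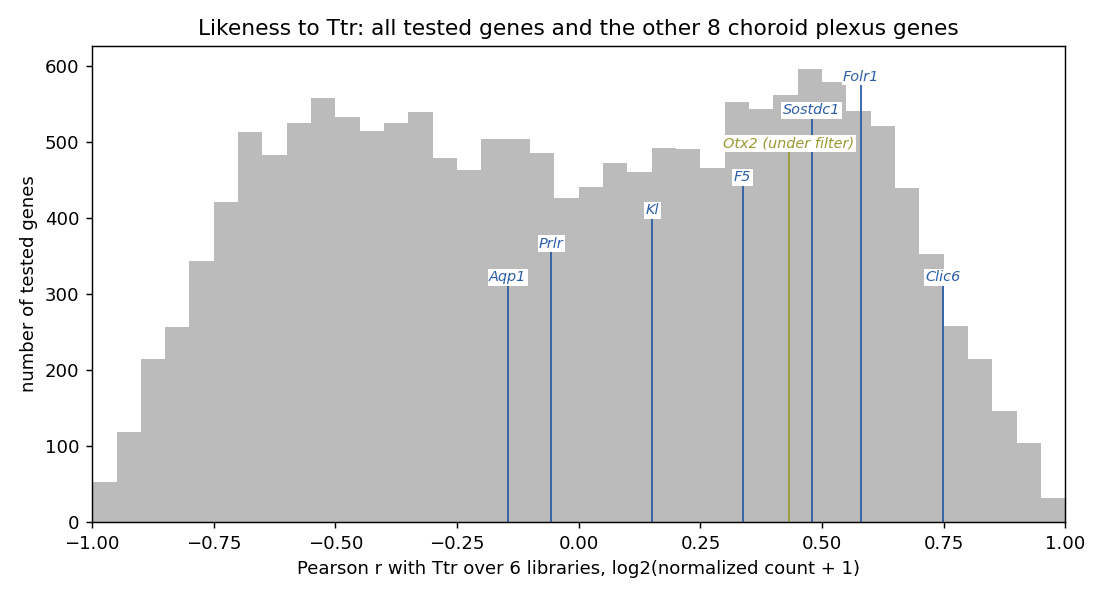
The histogram counts the tested genes other than *Ttr* by their Pearson r with *Ttr* over the 6 libraries on the log2 scale, and vertical lines mark the other 8 choroid plexus genes, with *Otx2* marked as under the filter. The 8 genes lie between -0.15 and 0.75, and the tested genes cover nearly the whole scale.

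The order of the libraries gave a second view of likeness. In both genotypes *Ttr* was highest at number 3, then number 1, then number 2. *Prlr* and *Clic6* had this order, 2 of the 7 other genes that passed the filter, as did 6.90% of the tested genes. Number 3 was the highest library of both genotypes for *Ttr* and for 5 of the other 7 genes, namely *Kl*, *Prlr*, *F5*, *Clic6* and *Sostdc1*, against 24.9% of the tested genes. In addition to *Ttr*, TG-3 was the highest of all 6 libraries for *F5*, *Folr1* and *Clic6*, 3 of the 7, against 17.0% of the tested genes. WT-3 was the highest for *Kl*, *Prlr* and *Sostdc1*, against 23.9%. *Aqp1* was lowest in TG-3, and *Folr1* in WT-3 lay below WT-2.

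The genes whose pattern was closest to *Ttr* were sought among the 785 other tested genes with a log2 range of at least 2. The 10 with the highest Pearson r over the 6 libraries were *Mfap5* (0.99), *1700017D01Rik* (0.97), *Tg* (0.94), *Gm12715* (0.91), *Gm3625* (0.90), *Mum1l1* (0.90), *H2-DMb2* (0.89), ENSMUSG00000092174 (0.89), *Gm6723* (0.88) and *Fut7* (0.83). Of these, *Tg* was under the floor of 3 normalized counts in 4 libraries and *Gm12715*, *Gm3625*, *Gm6723* and *Fut7* in 3, so that their r rests largely on values too low to read. *Mfap5*, a component of extracellular microfibrils, gave 13.0, 6.70 and 31.3 normalized counts across TG-1, TG-2 and TG-3, against 5.60, 5.66 and 8.35 across WT-1, WT-2 and WT-3. *1700017D01Rik* gave 20.2, 12.7 and 48.5 across TG-1, TG-2 and TG-3, against 7.88, 6.78 and 17.9 across WT-1, WT-2 and WT-3, which put the 6 libraries in the same order as *Ttr* (Spearman rho 1.00).

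A list of 28 further genes of choroid plexus epithelium, of which 27 were in the table and 19 passed the filter, was read next. Over the 6 libraries, the log2 value of its sum had an r of -0.01 with *Ttr* (rho -0.03), and without *Enpp2*, which makes up most of the sum, an r of 0.65 (rho 0.66). The latter was 0.15 for the deviations from the genotype means and 0.59 without TG-3 and TG-1. The median r of the 19 genes with *Ttr* was 0.37. The test was limma's, with the genotype alone in the model and a threshold of 0.05. After adjustment 0 of the 19 genes passed it, and so did 0 of the 16714 tested genes (0%). *Shank3* itself, with a log2 difference of 1.18, did not pass (limma's adjusted p 0.064). A count of 0 in this test therefore does not show that no gene differed. Before adjustment 2 of the 19 passed, *Slc13a4* and *Mfrp*, beside 2.01% of the tested genes. With the replicate number as a block, 2 of the 19 passed before adjustment, beside 4.98% of the tested genes, and 0 of the 19 after it, beside 0.00598%, which was *Shank3* alone. The log2 differences were above 0 for 16 of the 19 genes, with a median of 0.11, which was -0.0051 without WT-2. *Shank3* TG was above WT without overlap for 3 of the 19, *Kcnj13*, *Slc13a4* and *Perp*, against 2.91% of the tested genes, and below WT without overlap for *Mfrp*, against 3.12%.

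*Slc13a4*, a sulfate transporter that is also strongly expressed in the leptomeninges, had a *Shank3* TG mean of 467 ± 67.4 normalized counts (SD, n = 3) and a WT mean of 343 ± 8.20, a log2 difference of 0.43 (standard error 0.12). *Kcnj13*, the inward rectifier potassium channel Kir7.1 of this epithelium, gave 31.5, 28.0 and 32.6 normalized counts across TG-1, TG-2 and TG-3, against 21.7, 23.0 and 19.4 across WT-1, WT-2 and WT-3. All *Shank3* TG libraries of *Kcnj13* were above the WT libraries, but TG-2 was close to TG-1 and TG-3, unlike for *Ttr*. *Mfrp*, a membrane frizzled-related protein, had 17.9 ± 5.07 in *Shank3* TG and 39.4 ± 15.8 in WT.

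The most abundant gene of the list, *Enpp2* (autotaxin, which oligodendrocytes also express), had 6127 ± 430 normalized counts in *Shank3* TG and 6125 ± 486 in WT. The next in level, apart from *Slc13a4*, were *Cab39l*, *Spint2*, *Car12*, *Slc29a4*, *Perp* and *Slc2a12*, with log2 differences between -0.04 and 0.21. *Msx1*, a homeobox gene, gave 79.5, 56.0 and 93.5 normalized counts across TG-1, TG-2 and TG-3, against 63.6, 46.8 and 92.8 across WT-1, WT-2 and WT-3, with number 3 highest and number 2 lowest in both genotypes, and an r of 0.78 with *Ttr*. *1500015O10Rik*, which encodes the secreted peptide precursor Ecrg4, gave 29.0, 22.9 and 42.5 across TG-1, TG-2 and TG-3, against 23.2, 13.8 and 52.5 across WT-1, WT-2 and WT-3. These 2 genes thus shared the library order of *Ttr* within each genotype without its distance between TG-3 and WT-3. *Rdh5*, a retinol dehydrogenase, and *Trpv4*, a cation channel, had log2 differences of 0.06 (standard error 0.23) and 0.27 (standard error 0.21).

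The remaining 8 genes of the list in the table, *Slc4a5*, *Cldn2*, *Cldn3*, *Krt18*, *Wfdc2*, *Lmx1a*, *Steap1* and *Calml4*, were under the filter, with values between 0 and 11.3 normalized counts. Their sum was 25.2, 19.1 and 42.6 normalized counts across TG-1, TG-2 and TG-3, against 27.8, 28.0 and 33.6 across WT-1, WT-2 and WT-3. TG-3 was the highest and TG-2 the lowest library of this sum, as among the *Shank3* TG libraries for *Ttr*, and TG-1 was below all 3 WT libraries. *Wfdc2* gave 5.09, 4.88 and 11.3 normalized counts across TG-1, TG-2 and TG-3, against 2.00, 2.35 and 1.45 across WT-1, WT-2 and WT-3. It was above WT in each *Shank3* TG library, and all 3 WT libraries were under the floor. *Kcne2*, a potassium channel subunit just above the filter, had 13.6 normalized counts in TG-3 and between 0.777 and 8.90 in the other 5 libraries.

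Genes of thyroid hormone and retinol handling, the pathways served by transthyretin, were read next. Of 13 genes tested with limma, 0 passed 0.05 after or before adjustment (1 before adjustment with the block), beside 2.01% (4.98% with the block) of the tested genes before adjustment, with 6 log2 differences above 0, 7 below and a median of -0.04. The lowest was -0.51 for *Lrp2*, the endocytic receptor megalin, with 15.8 ± 2.96 normalized counts in *Shank3* TG and 23.5 ± 7.66 in WT. The WT mean of *Lrp2* leaned on WT-3, with 31.6 normalized counts against 16.4 in WT-1 and 22.4 in WT-2. TG-3, with 19.1, was above WT-1. *Rbp4*, the retinol-binding protein that circulates with transthyretin, gave 298, 321 and 340 normalized counts across TG-1, TG-2 and TG-3, against 345, 326 and 333 across WT-1, WT-2 and WT-3. *Thra* and *Thrb*, the thyroid hormone receptors, had log2 differences of 0.04 (standard error 0.07) and 0.02 (standard error 0.11). *Dio2*, the enzyme that activates thyroxine, gave 3870, 4277 and 2626 normalized counts across TG-1, TG-2 and TG-3, against 3777, 4237 and 2694 across WT-1, WT-2 and WT-3. *Klf9*, a transcription factor that responds to thyroid hormone and to glucocorticoids, gave 4710, 4859 and 8137 across TG-1, TG-2 and TG-3, against 4698, 5608 and 9316 across WT-1, WT-2 and WT-3. TG-3 and WT-3 were the lowest libraries for *Dio2* and the highest for *Klf9*, and they were nearly equal to each other for *Dio2*.

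Of 12 tested genes for ligands, co-receptors and effectors of klotho, the prolactin receptor, Sostdc1 and factor V, 0 passed 0.05 in limma's test after adjustment and 1 before it, beside 2.01% of the tested genes, and the median log2 difference was 0.07. The 1 gene was *Bmp7*, a bone morphogenetic protein, with 390, 393 and 481 normalized counts across TG-1, TG-2 and TG-3, against 292, 310 and 365 across WT-1, WT-2 and WT-3. Its log2 difference was 0.39 (standard error 0.13), and its r with *Ttr* was 0.89. *Shank3* TG was above WT without overlap for 2 of the 12, *Bmp7* and *Bmp4*, beside 2.91% of the tested genes. The most abundant, *Lrp6*, *Fgfr1*, *Lrp4* and *Jak2*, had log2 differences between -0.07 and 0.08. The prolactin gene *Prl* and the choroid plexus transporter gene *Slco1a5* were not analysed here.

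Markers of other cells that a dissection near the ventricle or the brain surface can hold were summed in each library. The 10 ependymal genes, of which several belong to motile cilia that choroid plexus cells also carry, summed to between 249 and 296 normalized counts in *Shank3* TG and to 233, 270 and 602 in WT-1, WT-2 and WT-3. All 10 were highest in WT-3, the library with the highest sum of the other 8 genes and the highest *Prlr*. *Foxj1*, the regulator of motile cilia and the most abundant, had 177 normalized counts in WT-3 and between 77.8 and 115 elsewhere, a log2 difference of -0.57 between the genotypes (standard error 0.22). The next in level, *Rsph1*, *Fam183b* and *Hydin*, had log2 differences of -0.0028, 0.03 and 0.20. Of the 10 log2 differences, 4 were above 0 and 6 below, with a median of -0.10. Because all 10 genes were highest in WT-3, that library lowers each of these differences, that of *Foxj1* included, and the tally leans on it. In limma's test 0 of the 10 passed 0.05 after adjustment and 2 before it, beside 2.01% of the tested genes, and with the block 3 before it, beside 4.98%. The 2 were *Foxj1* and *Tmem212*, both below WT without overlap, beside 3.12% of the tested genes, and *Ccdc153* was added by the block. *Ccdc153* had 70.3 normalized counts in WT-3 against at most 13.5 elsewhere, and *Tmem212*, a defining ependymal marker, was at 0 in TG-2 and TG-3. *Tmem212* reached the filter only through its 29.8 normalized counts in WT-3, and 4 of its 6 values were under the floor of 3, so its difference rests on values too low to read. In TG-3, where *Ttr* was highest, the ependymal sum was 296 normalized counts.

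The 14 leptomeningeal genes, for fibroblasts of the brain surface, summed to 6513 ± 531 normalized counts in *Shank3* TG and 5406 ± 450 in WT, with log2 differences above 0 for all 14 and a median of 0.30. Of these genes, 7 of 14 were above WT without overlap, against 2.91% of the tested genes, and in limma's test 0 passed 0.05 after adjustment and 6 before it, beside 2.01% of the tested genes. With the block 9 passed before adjustment, beside 4.98%. The most abundant, *Igf2*, which the choroid plexus also expresses, had 2069 ± 183 normalized counts in *Shank3* TG and 1746 ± 116 in WT. The next, *Col1a2*, *Slc6a20a* and *Slc13a3*, had log2 differences of 0.09, 0.22 and 0.35. The sum was highest in TG-2, with 7072 normalized counts, in which *Ttr* was lowest among the *Shank3* TG libraries, and it was 6450 in TG-1 and 6016 in TG-3.

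The 5 genes of red blood cells summed to 8397, 6909 and 10646 normalized counts across TG-1, TG-2 and TG-3, against 8082, 6013 and 9643 across WT-1, WT-2 and WT-3. This was the order of *Ttr* within both genotypes, with number 3 highest and number 2 lowest, and the r with *Ttr* of the single genes was between 0.53 and 0.75. The sums of TG-3 and WT-3 differed by less than the SD of the 3 WT libraries. In limma's test 0 of the 5 passed 0.05 after adjustment and 1 before it, *Alas2*, beside 2.01% of the tested genes, with all 5 log2 differences above 0. With the block 3 passed before adjustment, beside 4.98%. The hemoglobin genes *Hba-a1* and *Hba-a2*, and likewise *Hbb-bs* and *Hbb-bt*, are near-identical pairs between which reads can be split. The 8 genes of striatal projection neurons, among them *Ppp1r1b*, *Penk* and *Rgs9*, summed to between 4366 and 4769 normalized counts in the 6 libraries. The 6 cortical genes, among them *Slc17a7*, *Tbr1* and *Cux2*, summed to between 53231 and 62206, with the highest sum in TG-3. In limma's test 0 genes of either list passed 0.05 before or after adjustment. The part of ependymal, leptomeningeal or blood RNA in the values of the choroid plexus genes was not tested.

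**Figure D4:**
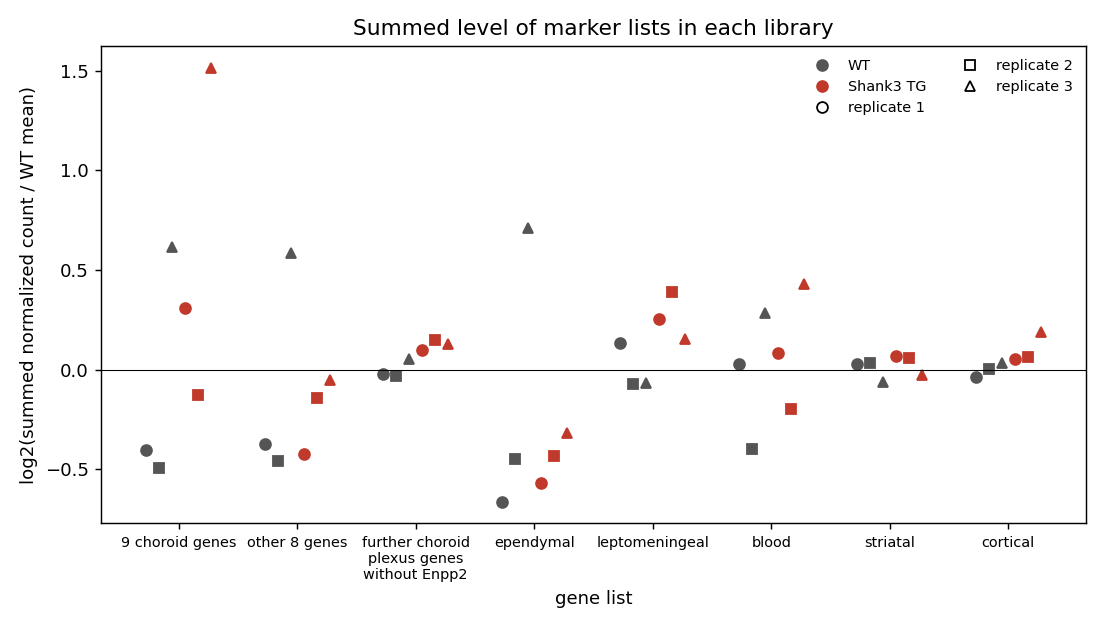
For each list, the points give the log2 ratio of its summed normalized counts in a library to the mean of the 3 WT libraries (WT grey, *Shank3* TG red, replicate number as the symbol). TG-3 stands apart for the 9 choroid plexus genes, whose sum holds *Ttr*, whereas WT-3 stands apart for the other 8 genes and for the ependymal list.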

How the data were processed

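RNA-seq of 6 mPFC libraries (3 *Shank3* TG, 3 WT), grouped by the labels, was re-analysed. Per the labels and the study's methods, the authors ran Salmon 0.9.1 against GRCm38, corrected for GC bias, summarized transcripts to genes in R 3.6.0 and divided them by size factors in DESeq2 1.19.11. The deposited signal is these normalized counts, with a sum between 28364000 and 29448000 per library. They are not whole: at the best step, 41.1% or fewer of the values up to 20 lay within 0.05 of a multiple, so reads were not recovered and no count model or counting interval was used. A floor of 3 normalized counts was taken as the lowest readable level.

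Names, positions and exon lengths came from GENCODE M21 (18231 of 18254 identifiers matched). Of genes overlapping a member on the same strand, *Gm21973* overlaps *Prlr*, *Gm16588* *F5*, *2410124H12Rik* *Clic6* and *Gm49154* *Otx2*, so their reads could be split by the estimation. The 16714 genes whose mean reached 5 normalized counts were fitted on log2(normalized count + 1) with limma 3.58.1 in R 4.3.3 (genotype alone, trended eBayes, two-sided, Benjamini-Hochberg, threshold 0.05). Figures were drawn with matplotlib 3.10.9. In simulated data with 200 of 16714 genes changed, the fit called 109 of them at a log2 change of 1 and 170 at a change of 2, with 8 and 10 others. The simulated noise was independent between genes and libraries, whereas TG-3 and WT-3 shared deviations (r = 0.62). These numbers therefore do not give the power of the test in the real libraries. With 3 libraries against 3, an exact permutation test of one gene cannot give a p-value under 0.1. P-values measure the spread between pools.

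The members and all lists were chosen with earlier results of these data known. Named are all members, *Shank3*, the 12 most abundant of the further choroid plexus genes, the 4 most abundant of each other list and the 10 genes most like *Ttr*, apart from a few genes that are not reported here. Other genes of these lists were named after their values had been seen. Replicate numbers were checked for pairing by the correlation across genes of deviations from the genotype means (0.30, 0.33 and 0.62 for numbers 1, 2 and 3). Between unlike numbers it was 0.27 for TG-1 with WT-2 and 0.23 for TG-2 with WT-1. For number 3 with the other numbers it lay between -0.44 and -0.39. Tried as alternatives were a pseudocount of 0.1 or 5, the filter left out or raised to 50, upper quartile scaling, quantile normalization, untrended and robust eBayes, an empirical null, the replicate block, each library left out, deviations from genotype means and, added after seeing the data, the libraries numbered 1 and 2 alone.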

Additional observations from a re-analysis of the deposited data

How the results depend on the processing

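Of 16714 genes, 0 passed 0.05 in limma's test after adjustment and 336 before it. It was 1 with the replicate number as a block, 1 with the robust option, 1 with the libraries numbered 1 and 2 alone and 26 with the empirical null, and, leaving out single libraries, from 0 to 1, the 1 being without WT-3. The causes were not tested. With the empirical null, 1 gene of the lists other than the 9 choroid plexus genes was among the 26. The deviations of TG-3 and WT-3 went together (r = 0.62), but for numbers 1 and 2 same and unlike numbers were hardly told apart. The replicate numbers may therefore not pair the samples, and the block was fitted beside the model without it. The replicate block changed no log2 difference, and it changed the call after adjustment of no gene of those lists. With the block, 833 genes passed before adjustment.

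The log2 difference of *Ttr*, the gene on which the group was selected, lay between 1.42 and 3.53 in the 12 alternatives. Omitting 1 library turned the sign of the log2 difference of *Kl*, *F5*, *Folr1* and *Sostdc1*, but not of *Prlr*, *Clic6* or *Aqp1*. The median of the other genes of the group that passed the filter, 0.0052, ranged from -0.18 to 0.26 when single libraries were omitted and was -0.03 without a filter. The median of the further choroid plexus genes lay between -0.0051 and 0.22. The Pearson r between *Ttr* and the sum of the other 8 genes, 0.19, was 0.42 for deviations from the genotype means and lay between 0.014 and 0.55 when single libraries were omitted, lowest without WT-2 and highest without WT-3. Values of a few normalized counts, as for *Otx2*, *Folr1* and *Wfdc2*, limit what these libraries can show, since a change of a few reads moves them.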

Other observations

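*Tg*, the gene for thyroglobulin, the precursor of thyroid hormone in the thyroid gland, was among the 10 genes closest in pattern to *Ttr*. It gave 6.69, 1.23 and 101 normalized counts across TG-1, TG-2 and TG-3, against 1.32, 1.31 and 2.23 across WT-1, WT-2 and WT-3, so that its level in TG-3 stood apart from the other 5 libraries, of which 4 were under the floor of 3 normalized counts. *H2-DMb2*, an antigen presentation gene, had 60.5 normalized counts in TG-3 and at most 19.9 in the others. Its Spearman rho with *Ttr* was 0.49, and its r was -0.87 without TG-3 and TG-1, so its likeness rests on those libraries. *Fut7*, a fucosyltransferase, had 27.5 and 21.2 in TG-1 and TG-3, 18.3 in WT-3, and between 1.75 and 2.57 in the remaining 3 libraries.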
